A study of Canis lupus familiaris with 28 samples.

Results

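The messenger RNA of dog TR-T10 cells carrying an shRNA against p190A was compared directly with that of cells carrying an shRNA against p190B, both grown sub-confluent. The comparison rests on 4 of the 28 samples of the series, 2 libraries for each shRNA, chosen by their labels: sub-confluent, first experiment, and either the p190A or the p190B shRNA. In TR-T10 cells a tetracycline repressor controls the introduced constructs. Each shRNA came in by retrovirus and was induced for 3 days with doxycycline at 4 µg/ml, after which cells were replated for 3 to 5 days. The p190A line was selected in hygromycin and the p190B line in puromycin, so the shRNA, the drug used for selection and the history of each selected line cannot be told apart in this comparison. The single knockdowns were also compared at confluence, with 2 libraries each in experiment 1. Wild-type and double knockdown cells of experiment 1 were used too, with 2 libraries of each at each density. The double knockdown was made by adding the p190A shRNA to the p190B line. Experiment 2 gave confluent wild-type and double knockdown cells with 3 libraries each. It also held confluent double knockdown cells with YAP5SA+S94A (3 libraries) and confluent cells labelled YAP5SA (2 distinct libraries). The values of these 2 groups are read only in the closing observations. Doxycycline treatment of the wild-type cells is not stated in the labels.

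p190A (ARHGAP35) and p190B (ARHGAP5) are closely related GTPase-activating proteins. They switch the small GTPase RhoA to its inactive state and so lower contraction of the actin cytoskeleton. In epithelial cells, signals from RhoA and from cell contact meet on YAP, a transcriptional coactivator that the Hippo pathway keeps out of the nucleus in dense cultures. With 2 proteins of like activity, a direct contrast of the single knockdowns asks whether removing either leaves cells with the same transcripts.

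The deposited files name Ensembl transcripts and give no gene names, and none of the 29884 identifiers is in the reference table of 43286 dog genes. The targets of the shRNAs, pathway genes and cell type markers could therefore not be looked up by name, and the 4 transcripts described here are given by identifier alone. The 4 libraries held 12853693 to 16041130 reads assigned to a transcript. The p190A replicates differed more from each other than the replicates of any other group in experiment 1, with a median absolute difference of 0.264 on the log2(CPM + 0.5) scale against 0.145 to 0.197 elsewhere. CPM, the usual depth-scaled unit, divides a count by the number of reads assigned to transcripts in its library. The p190B replicates differed by 0.150. Of the tested transcripts, 507 were at least 2-fold apart between the p190A replicates and 81 between the p190B replicates.

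The cells with the p190A and the p190B shRNA differed in 2735 of 12845 tested transcripts, 21.3% of them (edgeR quasi-likelihood test on 16 libraries, adjusted p under 0.05). Of these, 1416 were higher with the p190A shRNA (11.0%) and 1319 were higher with the p190B shRNA (10.3%). The transcripts of these 2 sets are called members of them. Of the 2735, 941 (34.4%) were under 1.5-fold apart, and the median absolute log2 fold change was 0.73, against 0.30 over all tested transcripts. At least 2-fold differences numbered 350 toward p190A and 487 toward p190B. At least 8-fold differences numbered 32 and 62. In bulk RNA, fewer cells expressing a transcript and less of it per cell cannot be told apart.

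Called transcripts were more abundant than the tested ones as a whole, with median levels of 47.6 CPM (higher in p190A) and 39.8 CPM (higher in p190B) against 21.8 CPM. Transcripts of the first set took up 17.6% and 19.0% of transcript reads in the p190A libraries and 11.5% and 11.4% in the p190B libraries. Those of the second set took up 10.8% and 9.57% in the p190A and 17.5% and 16.4% in the p190B libraries. A few transcripts were close to absent on one side: 19 of those higher in p190A had at most 3 counts in each p190B library, and 43 of those higher in p190B had at most 3 counts in each p190A library. How many of all tested transcripts were this low was not counted. The CPM values of the 2 groups did not overlap for 2732 of the 2735 called transcripts, and also for 56.0% of all tested transcripts.

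The number of calls varied with the libraries in the fit and with the tool. A fit of the 4 libraries alone called 872 of 12037 transcripts (7.24%), 374 higher in p190A and 498 higher in p190B, and 861 of these were among the 2735 with the same sign. A fit of the 8 sub-confluent libraries called 1636, 745 and 891. Limma-voom with a quality weight for each library, which gave the p190A libraries weights of 0.421 and 0.421 and the p190B libraries 1.30 and 1.30, called 1681. The count was 3275 without p190A replicate 1, 1752 without p190A replicate 2, 1231 without p190B replicate 1 and 1478 without p190B replicate 2. In each of these fits 1 library stood for its group, with its spread borrowed from the remaining groups. Of the 12845 tested transcripts, 769 were called with the same sign in the 16-library fit and in all 8 alternatives to it. They comprised 352 higher in p190A and 417 higher in p190B. The alternatives changed the scaling, the filter, the tool, the groups in the fit or the replicate block. Fits that left out a single library were not among them.

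**Figure D1:**
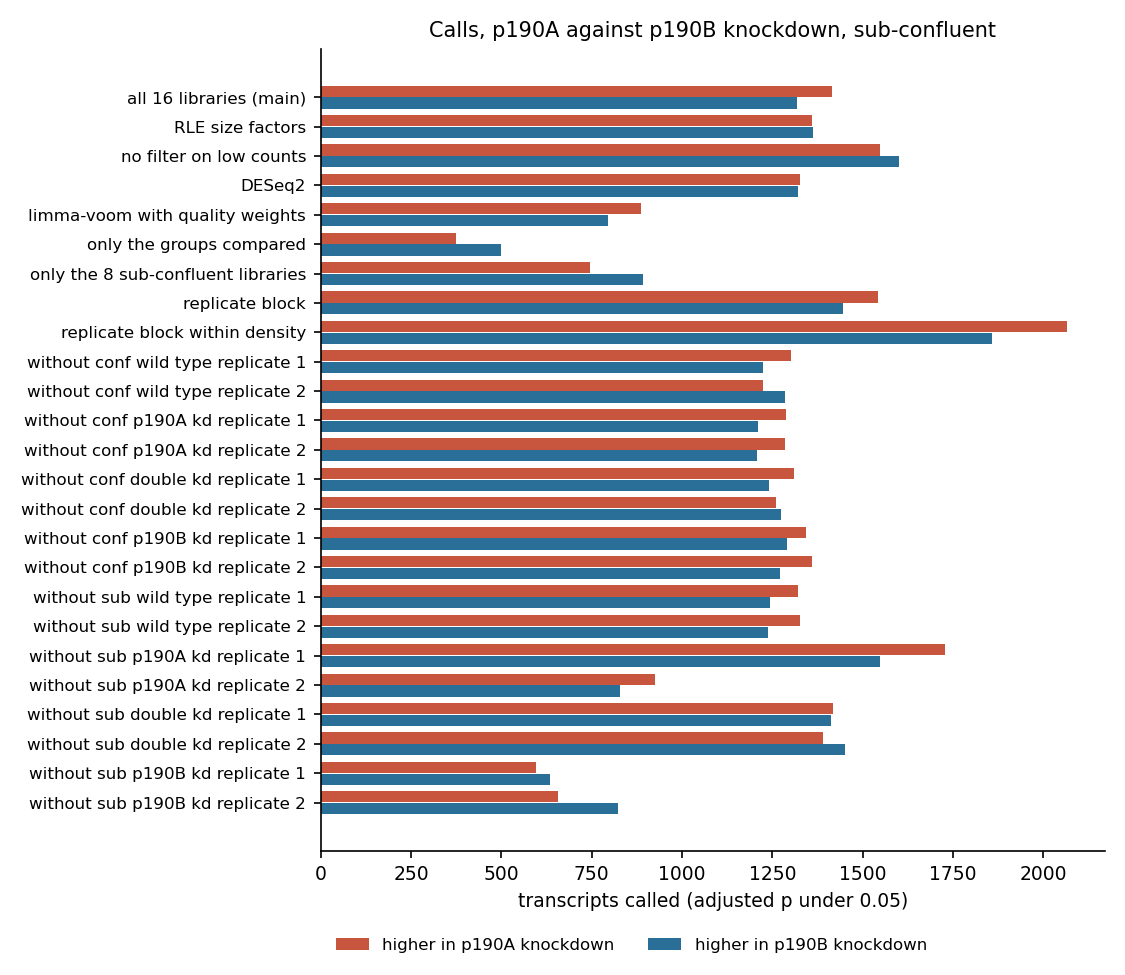
Number of transcripts called between the p190A and the p190B knockdown in sub-confluent cells (horizontal axis) under each setting (vertical axis), with red bars for transcripts higher in p190A and blue bars for those higher in p190B. The shortest pair of bars is the fit of the 4 libraries alone, with 374 and 498 calls, and the pair for the 8 sub-confluent libraries, with 745 and 891, is also shorter than the 1416 and 1319 of the 16-library fit.

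The 4 transcripts shown were taken by rank. Eligible transcripts were called, had a mean log2(CPM + 0.5) of at least 3 over the 4 libraries and had CPM values that kept the p190A and p190B libraries apart. They were ordered by the gap between the lowest library of the higher group and the highest library of the lower group. Of 1207 eligible transcripts higher in p190A and 1014 higher in p190B, the first 2 of each are described. Since the rank used these libraries, their sub-confluent values are a description. The confluent libraries set neither the gap nor the direction, but they shared the spread estimate, scaling and filter of the fit behind the calls. They come from the same selected lines, so they show whether a difference recurred at another density, not what it stems from.

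Transcript ENSCAFT00000029232 had the widest gap among those higher in p190A. It stood at 98.8 and 245 CPM in the p190A libraries and at 3.71 and 5.13 CPM in the p190B libraries. The p190A replicates were thus 2.48-fold apart, yet both lay far above either p190B library. The log2 fold change was 5.29 (SE 0.51, edgeR adjusted p = 1.6e-05). Sub-confluent wild-type cells had 63.5 and 83.9 CPM and double knockdown cells 46.0 and 113 CPM, so the p190B libraries were the low ones and the double knockdown was not low with them. At confluence it was at 74.1 and 86.9 CPM with the p190A shRNA and 1.82 and 1.33 CPM with the p190B shRNA, a log2 fold change of 5.65 (SE 0.59, edgeR adjusted p = 3.6e-05). The confluent double knockdown libraries, at 21.5 and 14.7 CPM, lay between the p190B libraries and wild type, which had 44.8 and 40.6 CPM.

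Transcript ENSCAFT00000020882 showed the tightest contrast of the 4. Its level was 291 and 255 CPM in the p190A libraries and 22.3 and 23.0 CPM in the p190B libraries, a log2 fold change of 3.59 (SE 0.17, edgeR adjusted p = 6.4e-08). Sub-confluent wild-type cells had 254 and 254 CPM, just under the lower p190A library, and the double knockdown had 50.2 and 35.7 CPM. Low levels therefore went with the p190B shRNA, alone or together with the p190A shRNA. At confluence the same split was seen, with 233 and 311 CPM for p190A against 23.9 and 24.7 CPM for p190B (log2 fold change 3.46, SE 0.16, edgeR adjusted p = 8.6e-08). The confluent double knockdown of experiment 1 had 36.4 and 36.5 CPM. In experiment 2, wild-type cells had 253, 231 and 246 CPM and double knockdown cells 23.2, 26.3 and 24.5 CPM (log2 fold change -3.24, SE 0.05, edgeR adjusted p = 1.2e-52).

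Among the transcripts higher in p190B, ENSCAFT00000008568 had the widest gap. It was at 1.11 and 2.18 CPM in the p190A libraries, from 16 and 35 reads, and at 383 and 311 CPM in the p190B libraries. The log2 fold change was -7.69 (SE 0.60, edgeR adjusted p = 4.0e-06), or 207-fold. Wild-type cells lay between, at 24.5 and 54.0 CPM, so the single knockdowns stood on opposite sides of wild type. Against wild type the log2 fold changes were -4.55 (SE 0.59, edgeR adjusted p = 4.1e-04) for p190A and 3.15 (SE 0.44, edgeR adjusted p = 3.2e-04) for p190B. These share the wild-type libraries, and the p190A call was lost with limma-voom (adjusted p = 0.14). The sub-confluent double knockdown, at 35.2 and 99.3 CPM, overlapped wild type. At confluence the order of the single knockdowns and wild type was the same, with 2.13 and 1.88 CPM for p190A, 27.1 and 19.5 CPM for wild type and 131 and 99.5 CPM for p190B. The confluent double knockdown of experiment 1, at 68.9 and 45.7 CPM, did not overlap wild type and lay between it and p190B.

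Transcript ENSCAFT00000022293 was at 1.46 and 2.68 CPM with the p190A shRNA and at 55.2 and 44.4 CPM with the p190B shRNA, a log2 fold change of -4.57 (SE 0.26, edgeR adjusted p = 2.3e-07). Wild-type cells had 31.0 and 39.0 CPM, so here the p190A libraries were the low ones. Against wild type it fell by 4.06 on the log2 scale with the p190A shRNA (SE 0.26, edgeR adjusted p = 1.4e-06). The p190B value was 0.51 (SE 0.20, edgeR adjusted p = 0.093), not called, with both p190B libraries above both wild-type libraries. Double knockdown cells had 17.5 and 16.3 CPM, above both p190A libraries and below both wild-type libraries, although they carry the p190A shRNA. At confluence it was at 0.870 and 0.855 CPM with the p190A shRNA, 21.2 and 18.6 CPM with the p190B shRNA and 17.1 and 13.8 CPM in the double knockdown.

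**Figure D2:**
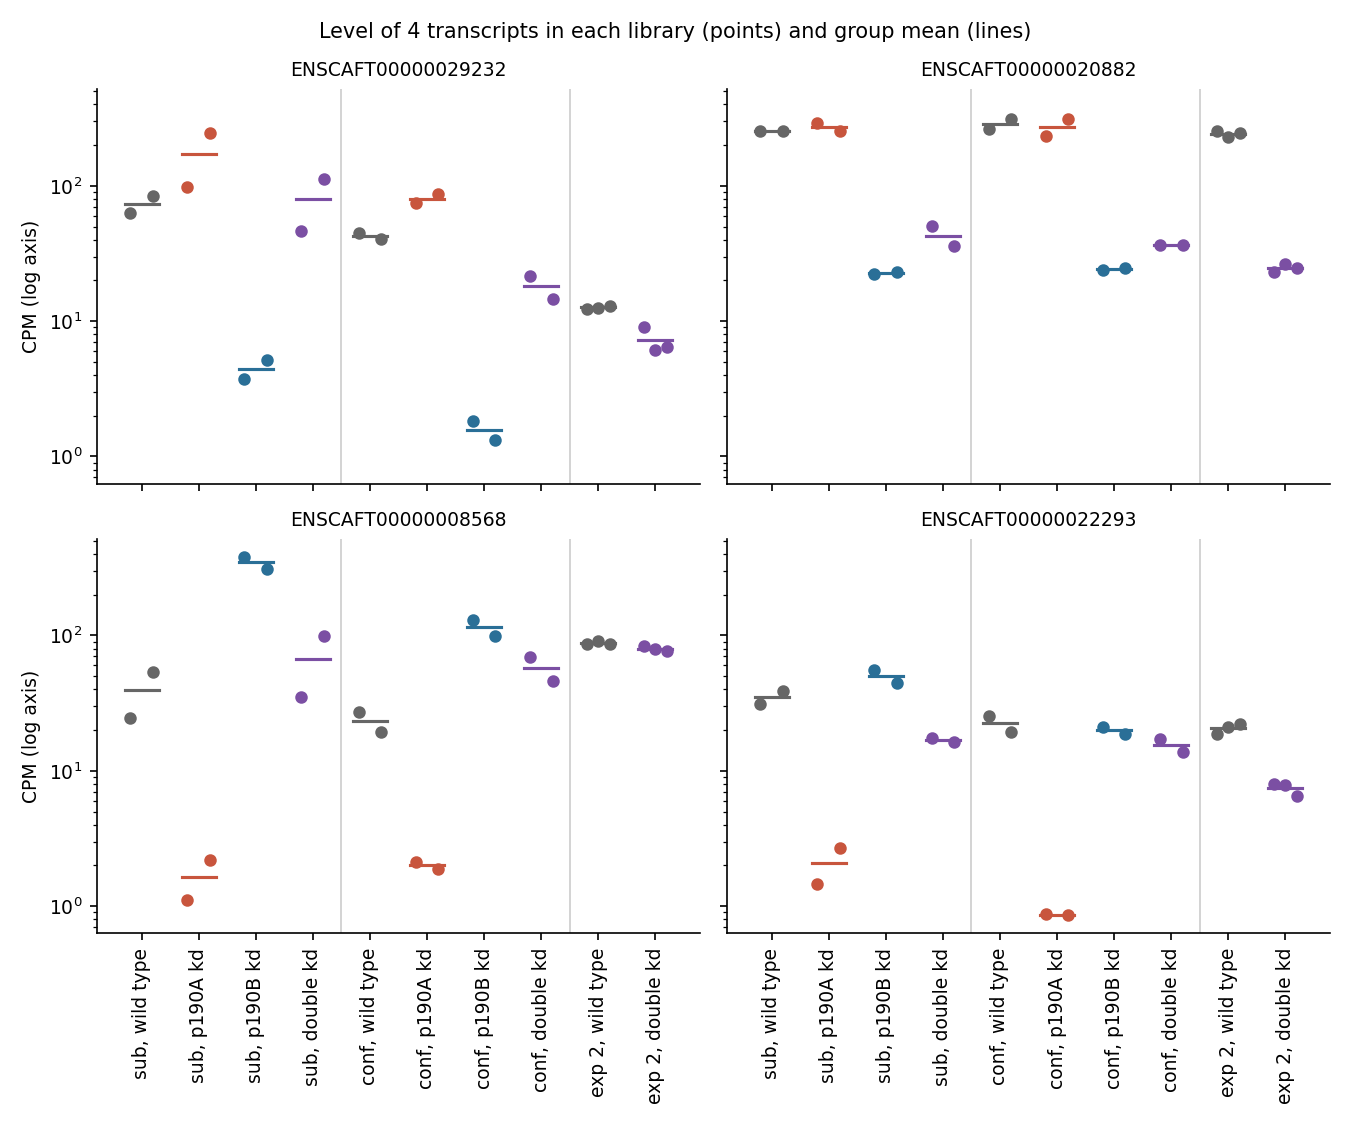
CPM on a log axis (vertical) of 4 transcripts in each library (points), with the group mean as a line, for the 8 groups of experiment 1 and for wild-type and double knockdown cells of experiment 2 (horizontal). ENSCAFT00000020882 is at 231 to 311 CPM in wild-type and p190A cells and at most 50.2 CPM in every library shown with the p190B shRNA, whereas for the other 3 transcripts the double knockdown of experiment 1 does not sit with the low single knockdown.

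The same contrast at confluence used 4 other libraries and so could be set against the sub-confluent calls. There, 1966 of 12845 transcripts were called (15.3%), 906 higher in p190A (7.05%) and 1060 higher in p190B (8.25%). Of the 1416 transcripts higher in p190A in sub-confluent cells, 683 were called higher at confluence, which is 48.2% of the sub-confluent and 75.4% of the confluent list. Of the 1319 higher in p190B, 786 were called again, 59.6% of the sub-confluent and 74.2% of the confluent list. A single transcript was called at both densities with opposite signs.

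Direction was also compared without regard to calls. At confluence 1375 of the 1416 (97.1%) and 1287 of the 1319 (97.6%) had a fold change of the same sign. Among members not called again in the same direction, this held for 692 of 733 and 501 of 533, where 49.4% of all tested transcripts were positive and 50.6% negative. The median log2 fold changes of all members at confluence were 0.49 and -0.62, against 0.00 over all tested transcripts. The shared direction included the extreme members, since all 32 and all 62 transcripts at least 8-fold apart in sub-confluent cells kept their sign and 16 and 47 of them were called again. Across the 12845 transcripts, which share library depth and cell lines and are not independent, the fold changes at the 2 densities had Pearson's r = 0.746 and Spearman's rho = 0.703.

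Whether the difference between the knockdowns itself changed with density was tested as an interaction. With edgeR, 0 of 12845 transcripts passed (0% called), and the smallest adjusted p was 0.17. At unadjusted p under 0.05 there were 580 transcripts, 4.52%. The count was 4 with DESeq2, 0 with limma-voom and 89 when edgeR was run unfiltered. Leaving out single libraries gave 0 to 16, the highest without sub-confluent p190A replicate 1, and 2 without p190A replicate 2. The median standard error of the interaction over the 2735 called transcripts was 0.22 on the log2 scale, and its median absolute size 0.22, so a density effect of that size on a single transcript was not detectable at this depth and replication. For ENSCAFT00000008568, which had the widest gap among eligible transcripts higher in p190B, the interaction was -1.84 (SE 0.93, edgeR adjusted p = 1). It was called only in the fit without the filter (edgeR adjusted p = 5.4e-06). Both this transcript and the 2735 were chosen by their sub-confluent difference, which is part of the interaction. The choice alone leans their interactions toward a larger sub-confluent difference, so these values are a description.

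**Figure D3:**
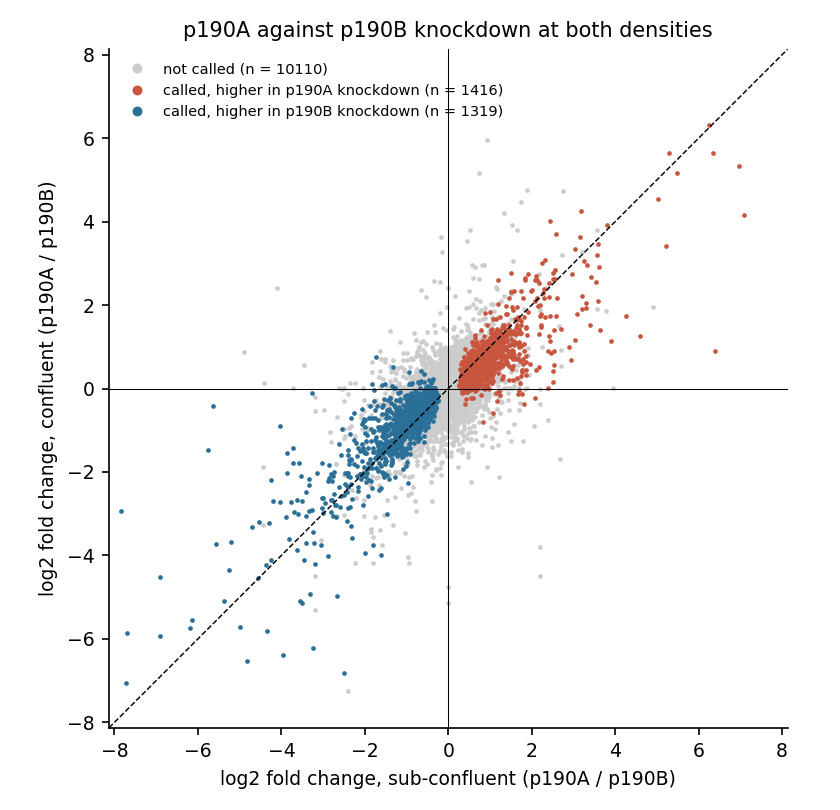
Log2 fold change of p190A over p190B knockdown in sub-confluent (horizontal) and confluent cells (vertical) for 12845 transcripts, each a point, coloured by the sub-confluent call, with the dashed line marking equal values. The called transcripts lie in the lower left and upper right quadrants, apart from 41 of 1416 and 32 of 1319.

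Both single knockdowns were set beside sub-confluent wild type, against which 9.83% of tested transcripts were called for p190A and 18.0% for p190B. Over the transcripts higher in p190A, the median log2 difference from sub-confluent wild type was 0.21 for the p190A and -0.48 for the p190B knockdown. Over those higher in p190B, it was -0.30 and 0.50. In both sets the p190B knockdown thus lay farther from wild type than the p190A knockdown did. Over all tested transcripts these medians were 0.03 and 0.00. The wild-type mean lay between the knockdown means for 1008 of 1416 and 846 of 1319 members, and was nearer to p190A for 994 and 768. These counts were not made over all tested transcripts. Choosing members by their difference itself widens the interval between the means, so the counts are a description. These values share the wild-type libraries with each other and the knockdown libraries with the choice of members.

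Confluent libraries, which bore on the choice of members only through the shared spread, scaling and filter of the fit, gave a more even picture. Relative to the mean of all 16 libraries, the transcripts higher in p190A had a median log2 level of 0.09 and 0.17 in the confluent p190A libraries, -0.12 and -0.11 in confluent wild type and -0.36 and -0.39 in the confluent p190B libraries. Those higher in p190B had -0.22 and -0.18, 0.10 and 0.10, and 0.36 and 0.41. Wild type thus lay between the single knockdowns in both sets. The confluent double knockdown, at 0.09 and 0.08 in the first set and at -0.09 and -0.03 in the second, was on the p190A side of wild type in both. In sub-confluent cells the double knockdown mean was nearer to p190A than to p190B for 891 of 1416 and 867 of 1319 members. Sub-confluent wild type was itself nearer to p190A for 994 and 768 of these members. Neither count was made over all tested transcripts, so the shares are not read as particular to the members. In the first set the sub-confluent double knockdown, at 0.14 and 0.12, stood level with sub-confluent wild type, at 0.13 and 0.15. In the second set it was at -0.14 and -0.22, against -0.06 and -0.09. The p190A and p190B libraries that define nearness here also chose the members.

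**Figure D4:**
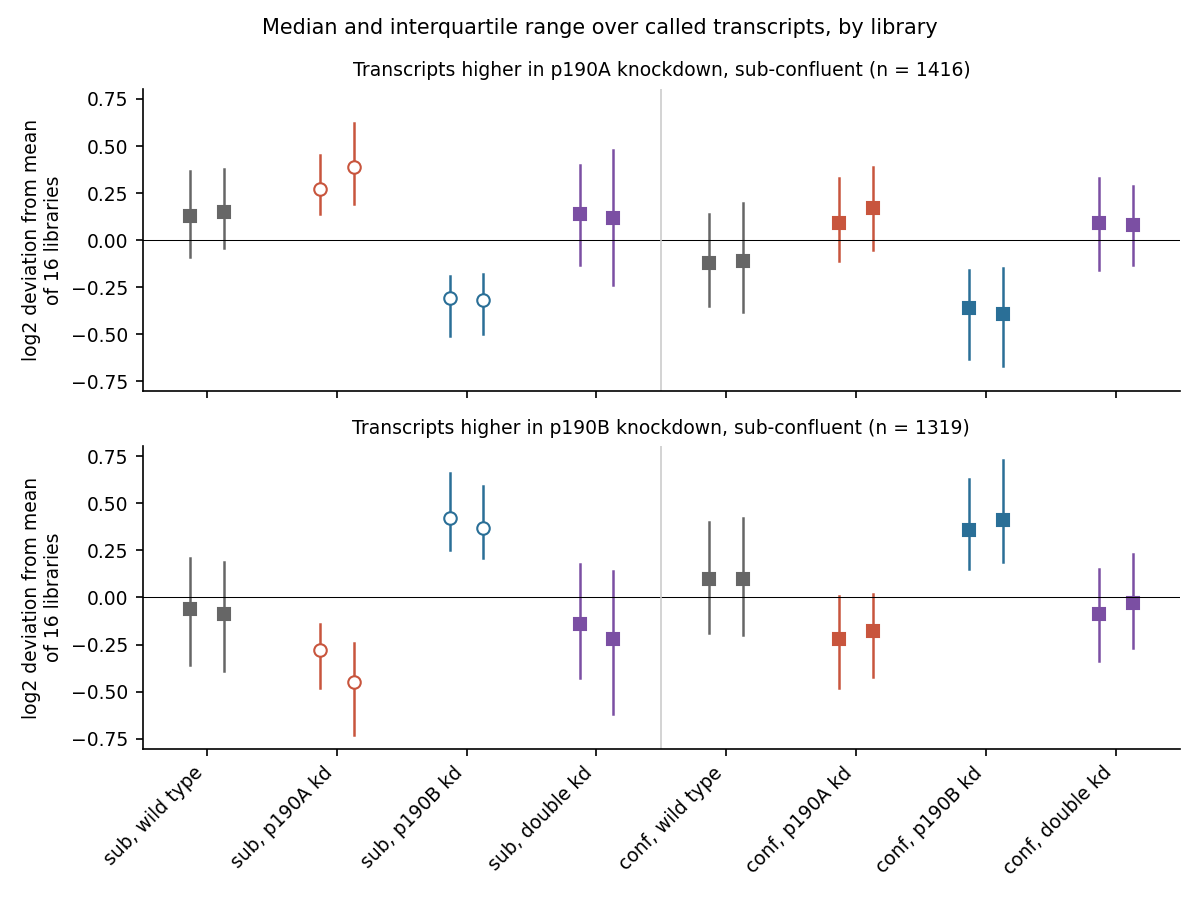
Median (symbol) and interquartile range (line) of the log2 deviation from the mean of 16 libraries (vertical), over the transcripts higher in p190A (upper panel) and higher in p190B (lower panel), for each library of experiment 1 (horizontal). Open circles mark the 4 libraries whose contrast chose the sets, and the filled squares of the confluent p190A and p190B libraries lie on the same sides as these.

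Because the p190A replicates stood apart, each of the 4 libraries was placed on the density response of wild-type cells, where 29.3% of transcripts were called. Over the 1930 transcripts higher in sub-confluent than in confluent wild type, the median log2 difference from sub-confluent wild type was -0.16 in p190A replicate 1, 0.15 in p190A replicate 2, -0.27 in p190B replicate 1 and -0.20 in p190B replicate 2. Confluent wild type was at -0.57. Over the 1839 transcripts lower in sub-confluent wild type, the same libraries were at 0.26, -0.16, 0.25 and 0.17, and confluent wild type at 0.90. In both lists p190A replicate 2 lay farthest of the 4 from confluent wild type. The sub-confluent wild-type libraries both chose these transcripts and served as the baseline, which by itself moves any other library toward the confluent side. Only the differences among the 4 libraries are therefore read here, not their distance from wild type.

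The members' own wild-type density response varied with which p190A replicate was in the fit, and each such fit called a different set of members. Of the transcripts higher in p190A, 557 were called higher (39.3%) and 99 lower (6.99%) in sub-confluent than in confluent wild type, with a median log2 fold change of 0.30. Of those higher in p190B, 160 (12.1%) were called higher and 301 (22.8%) lower, and the median was -0.11. Over all tested transcripts the shares were 15.0% and 14.3%. With members called without p190A replicate 2 the medians were 0.05 and 0.10, and without p190A replicate 1 they were 0.43 and -0.32. The part of culture density in the p190A against p190B difference was not tested. Of the 3769 transcripts called in the wild-type density comparison, 1117 (29.6%) were also called between the knockdowns. Of the 9076 not called there, it was 1618 (17.8%), against 21.3% of all tested transcripts. Those 1618 comprised 760 higher in p190A and 858 higher in p190B, of which 729 and 833 had the same sign at confluence.

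In experiment 2, which shares no library with this comparison, double knockdown against wild type gave calls for 70.3% of 13061 tested transcripts. Of 1409 members higher in p190A and tested there, 731 were higher (51.9%) and 431 lower (30.6%) in the double knockdown, with a median log2 fold change of 0.17. Of 1291 members higher in p190B, 416 (32.2%) were called higher and 628 (48.6%) lower, and the median was -0.14. Over all tested transcripts 35.2% were higher and 35.1% lower. The double knockdown thus lay on the p190A side of wild type for both sets, by small amounts. Of the transcripts shown, ENSCAFT00000008568 had a log2 fold change of -0.06 (SE 0.04, edgeR adjusted p = 0.17) in that comparison, ENSCAFT00000029232 fell by 0.72 (SE 0.11, edgeR adjusted p = 7.7e-08) and ENSCAFT00000022293 was lower, at 8.04, 7.88 and 6.49 CPM against 18.8, 20.9 and 22.2 CPM in wild type, 2.63-fold (edgeR adjusted p = 2.1e-19).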

How the data were processed

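Per the labels' protocols, TruSeq mRNA libraries were read from one end. CanFam3.1, HTSeq 0.6.0, STAR 2.3.1n and DESeq2 1.4.5 appear in the submitters' processing notes, with no role given. The authors deposited raw read counts for 29884 transcripts per sample, with 5 summary rows, which entered neither library sizes nor tests. Reads on overlapping transcripts were in the ambiguous row, 21.7% to 22.9% of uniquely aligned reads in the 4 libraries, so such transcripts are measured from part of their reads. The strand setting of the counting is not given by any source used here.

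The 16 libraries of experiment 1 were fitted with 8 group means in edgeR 4.0.16 (R 4.3.3): filterByExpr, TMM, robust quasi-likelihood F-tests and Benjamini-Hochberg adjustment over 12845 transcripts, calling at adjusted p under 0.05. Standard errors were derived from the F statistic. Experiment 2 was fitted alone, with 11 libraries, as 2 files held identical values. Alternatives used DESeq2 1.42.0 and limma 3.58.1, other scaling and filters, fewer libraries and replicate blocks. Scripts were tested on simulated data. The labels do not state the cultures behind the replicates, and p-values cover only sample-to-sample spread, possibly technical. The comparison, transcripts and descriptions were chosen with earlier results of these data known. Transcripts were named by the rank given in the report, the first 2 in each direction, since no symbol could be matched. Lists of pathway and marker genes drawn up by symbol could for the same reason not be run.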

Additional observations from a re-analysis of the deposited data

How the results depend on the processing

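The sub-confluent count of 2735 stayed within 1.5 times with RLE size factors, without the filter and with DESeq2. It was 1681 with limma-voom quality weights, 872 with only the groups compared, 1636 with only the 8 sub-confluent libraries, and 1231 to 3275 when single libraries were left out. The confluent count of 1966 ranged from 951 to 2438 without single libraries, falling to 992 and 958 without confluent p190A replicates 1 and 2 and to 1296 and 951 without confluent p190B replicates 1 and 2. The 1469 calls shared by both densities were 742 with only the groups compared and 802 to 1686 without single libraries, the lower values being 848 and 802 without confluent p190A replicates 1 and 2, 819 without confluent p190B replicate 2 and 859 without sub-confluent p190B replicate 1. The cause was not tested. The interaction count of 0 was 89 without the filter, 4 with DESeq2 and 0 to 16 without single libraries. Same-numbered libraries share only a number in the labels. Deviations of same-numbered p190A and p190B libraries correlated with r = 0.287 in sub-confluent cells. Over all pairs of groups r was 0.166 to 0.408 within sub-confluent cells, 0.22 to 0.579 within confluent cells and -0.222 to 0.0513 between densities. Same-numbered libraries of one density thus deviated together, a hint from the data that the labels do not explain. With the replicate number as a block the sub-confluent count was 2988, and with a replicate block within density it was 3924, with 2204 shared calls and 3 interaction calls. For the 4 transcripts, both single-density differences were called with the same sign in every fit. Their interactions, not called in the 16-library fit, ranged without single libraries from -1.18 to 0.15 for ENSCAFT00000029232, -0.06 to 0.34 for ENSCAFT00000020882 and -0.57 to 0.33 for ENSCAFT00000022293. The median wild-type density response of transcripts higher in p190B ranged from -0.32 to 0.10. The replicate blocks and the 8-library fit were not run for experiment 2. Depth limits the low side of a contrast: 3 counts correspond to 0.187 to 0.233 CPM in the 4 libraries.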

Other observations

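Transcript ENSCAFT00000020882 was also followed across the whole series. Of 19256 transcripts with reads in experiment 1, it was the single one at least 4-fold lower, on the log2(CPM + 0.5) scale, in each of the 14 libraries labelled with the p190B shRNA than in each of the 11 labelled without it. No transcript was at least 4-fold higher in all of them. At 2-fold, 1 transcript was higher in all 14, and ENSCAFT00000020882 was still the single one lower. For the p190A shRNA, 0 transcripts were at least 4-fold lower and 2 at least 2-fold lower in all 14 libraries that carry it. Libraries labelled YAP5SA were left out of these counts, because one label field names both shRNAs for them and another names YAP5SA alone. In their 2 distinct libraries ENSCAFT00000020882 stood at 205 and 206 CPM, near the 231 to 253 CPM of wild type in experiment 2. The double knockdown with YAP5SA+S94A, labelled with both shRNAs throughout, had 57.1, 56.9 and 56.8 CPM. This search was made after the values of the transcript were seen.

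Levels of ENSCAFT00000008568 also differed between the experiments: confluent wild type had 27.1 and 19.5 CPM in experiment 1 and 86.1, 90.4 and 86.6 CPM in experiment 2. ENSCAFT00000029232 went the other way, with 44.8 and 40.6 CPM against 12.4, 12.6 and 12.9 CPM. Closer levels were seen for ENSCAFT00000020882, at 264 and 311 CPM against 253, 231 and 246 CPM. ENSCAFT00000022293 overlapped, at 25.6 and 19.5 CPM against 18.8, 20.9 and 22.2 CPM.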
